A study of Drosophila melanogaster with 35 samples.

Results

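Windows of 1000 bp in which N6-methyladenine (6mA) was listed as gained after depletion of DMAD, and which lay on chromatin bound by Polycomb (Pc) or by DMAD itself, were described in the Drosophila melanogaster cell line BG3C2. A window was taken when it overlapped a Pc or DMAD region by at least 1 bp and overlapped no Wds region and no region of the list of 6mA gained in brain. Of 6093 windows in the deposited list of gained 6mA, 5954 lay on the 6 main chromosome arms and 667 met this rule. On those arms 1241 gained windows touched Pc or DMAD; 472 of them were left out for a Wds region and 154 for a brain region, 52 for both. The windows were therefore chosen by their 6mA gain and by the positions of the Pc, DMAD, Wds and brain lists, and everything drawn from those lists below is a description.

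6mA is an adenine methylation of DNA, and DMAD is the Drosophila Tet-family protein, known for lowering 6mA in DNA. Pc is the chromodomain subunit of Polycomb repressive complex 1, which binds nucleosomes carrying trimethylated lysine 27 of histone H3 and keeps Hox and other developmental regulator genes silent. Trimethylation of lysine 4 of histone H3 (H3K4me3) marks active promoters, acetylation of lysine 27 (H3K27ac) marks active promoters and enhancers, while Wds, the WDR5 of flies, belongs to the complexes that write H3K4me3.

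BG3C2 is a neuronal line grown in culture. Control cells are labelled Wildtype, and what they received is not described; the treated cells are labelled DMAD-siRNA knockdown, while the protocol describes a 144 hr exposure of serum-starved cells to 580 bp dsRNA matching CG43444, there called CG2083. 6mA immunoprecipitation used 3 control and 3 knockdown libraries, of which 2 in each group share the number 1 in the labels and may be parts of 1 replicate, Pc 2 and 2, Wds 1 and 1, H3K4me3 1 and 1, and RNA 3 and 3; DMAD was profiled in 3 libraries labelled Wildtype. Brains labelled Wildtype and DMAD-knockout, of an allele, age and sex that the labels do not give, supplied 1 6mA library and 2 RNA libraries each. The lists of H3K27ac and RNA polymerase II (Pol II) peaks have no sample record in the labels used here, and the lists' names do not give the cell line in 1 spelling: the H3K4me3 and H3K27ac lists carry BG3, the knockdown Pol II list BG3C2 and the control Pol II list BG3C3. Whether the control Pol II list is of the same line is not stated.

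The gene-specific ends of the 2 primers that made the dsRNA template are shown because they define the depleted gene, CG43444 on arm 3L, whose own locus holds 2 of the windows. All bases shown are gene-specific, so both stand in capitals.
forward: CGGAGCCAGTAGTTTTCAGC
reverse: CATGGGGTTGATCTTCTCGT
They were read from the labels; where they fall relative to the windows was not determined here.

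Neuronal identity of the line was visible in part. In the authors' deposited table of control BG3C2 cells, the neuronal RNA-binding protein gene elav stood at 12.2 FPKM and the calcium channel gene cac at 6.62, but 6 of the 9 neuronal markers in the table were below 1, among them the synaptic genes Syt1 at 0.0582 and brp at 0.0998. Summed FPKM was 22.4 over the neuronal markers, 291 over 9 glial markers and 321 over 6 haemocyte markers in the authors' deposited table. Most of the glial sum came from loco at 116, nrv2 at 101 and moody at 63.0. The other glial markers, repo at 1.81 among them, lay between 0.0122 and 5.66 FPKM in the authors' deposited table. Over 9 muscle markers the sum was 137, most of it from Act57B at 111, and 7 of the 9 were below 1. Most of the haemocyte sum came from crq at 171 and srp at 135 in the authors' deposited table. The other haemocyte markers there lay between 0.0404 and 6.88 FPKM, and all 7 fat body markers were below 1. The deposited files hold 1 expression value per gene and group and 1 peak list per group, so no spread between replicates can be given, and the depth of the libraries is unknown.

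Pc without DMAD was the most frequent setting. Of the 667 windows, 344 (51.6%) touched Pc alone, 180 DMAD alone and 143 (21.4%) both. The median window had 824 of its 1000 bp covered, and 222 windows were covered throughout. Most stood singly: 529 had no other chosen window beside them, 63 runs held 2 and 4 runs held 3. Those 4 runs lay at tup, brp, Glut1 and sr, the last with 1 window touching the sr locus and 2 outside it. A gained window of any kind adjoined 26.8% of the 667, beside 25.4% of all 5954 gained windows. They fell on 475 of 7350 Pc regions (6.46%) and 298 of 5092 DMAD regions (5.85%), with at most 3 on 1 region. At the border of the rule, 16 windows were covered by 50 bp or less, the least by 1 bp, and 13 gained windows left outside lay within 50 bp of a Pc or DMAD region, the nearest at 8 bp. Neither set carried a control H3K4me3 peak, and H3K27ac peaks of control cells touched 3 of the 16 and 1 of the 13.

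Gain was less frequent where Pc and DMAD coincided than on Pc alone. The arms were divided into 120291 windows on the same 1000-bp frame, of which 18803 met every condition of the rule other than gain. Gain was listed for 3.55% of these (667 windows, 95% Wilson interval 3.29 to 3.82), for 4.45% of the windows on no Pc, DMAD or Wds region and no brain region (4.32 to 4.59), and for 4.95% of all windows (4.83 to 5.07). By class the share was 4.37% on Pc alone (3.94 to 4.85), 3.40% on DMAD alone (2.95 to 3.93) and 2.53% on both (2.15 to 2.97). These intervals cover counting error only, and neighbouring windows are not independent.

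The X chromosome stood above the large autosomal arms. Gain was listed for 5.65% of windows meeting the rule on X (75 of 1327, 4.53 to 7.03), against 3.07% on 2L, 3.53% on 2R, 3.21% on 3L and 3.61% on 3R. On Pc alone the X share was 7.57% (38 of 502, 5.56 to 10.2), and the next highest was 4.71% on 2L. X was also high among windows on no factor region, at 5.09%, but there 3R reached 5.18%. On DMAD alone X was again highest, at 6.08% (4.15 to 8.83), but on both factors the X share was 2.90% (1.67 to 5.00), below the 3.21% of 3R. Arm 4 held 3 of the 667.

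Pooled over the classes, active chromatin marks were less common under the gained windows than under other windows of the same rule. By class this did not hold for every mark, as given below. In control cells H3K4me3 peaks touched 14.4% of the 667 windows (11.9 to 17.3) and 25.6% of the 18136 that were not gained. H3K27ac peaks touched 36.9% (33.3 to 40.6) against 43.9%, and Pol II peaks 37.2% (33.6 to 40.9) against 46.1%. The knockdown lists gave 11.2% against 23.4%, 36.0% against 46.5% and 41.1% against 53.0%. Among windows meeting the rule, 2.03% of those with a control H3K4me3 peak were gained (96 of 4735, 1.66 to 2.47), against 4.06% of those without (571 of 14068, 3.75 to 4.40). The share was lower with the mark on each of the arms 2L, 2R, 3L, 3R and X, from 0.992% against 3.77% on 2L to 4.30% against 6.18% on X, and not on arm 4, which has 9 marked windows. It was also lower with the mark in each class. In windows covered throughout by Pc or DMAD the shares were 1.77% and 3.96%. Windows with all 3 marks in control cells were gained in 2.05% of cases and windows with none of them in 4.26%.

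**Figure D1:**
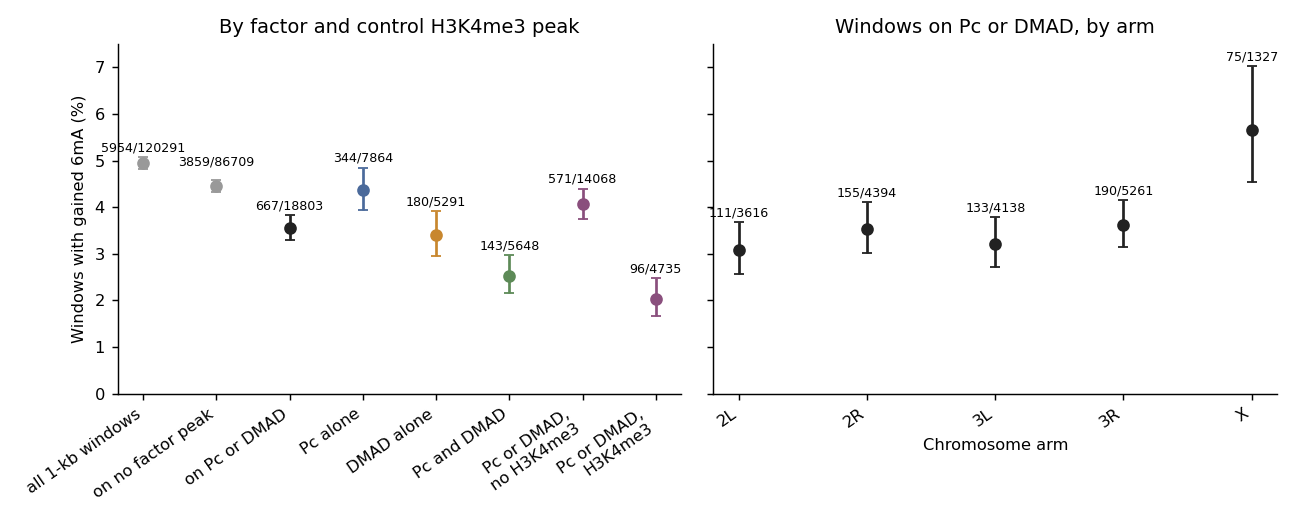
Share of 1-kb windows with gained 6mA (vertical axis, %) by bound factor and control H3K4me3 peak (left) and by chromosome arm (right); points are shares, bars 95% Wilson intervals and labels counts of gained over all windows. On the left the share goes from 4.37% on Pc alone to 2.53% on both factors, and on the right X stands at 5.65% while the 4 large autosomal arms lie between 3.07% and 3.61%.

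Ends of gene loci were also less often gained than their interiors. Gene loci, as the RNA table gives them, held 78.9% of the 667 windows (75.6 to 81.8) and 84.8% of the windows of the same rule that were not gained. A locus end lay in 10.5% of the gained windows (8.39 to 13.1) and in 17.1% of the others (16.5 to 17.6). Of the windows meeting the rule, 2.21% were gained when they held a locus end, 3.58% inside a locus away from its ends and 4.86% outside loci. The table gives no strand, so starts and ends of genes could not be separated. A locus can merge several genes, and gene ends inside it were counted as its interior.

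The classes carried different chromatin. In control cells 77.3% of the Pc-alone windows had none of the 3 marks, against 23.3% of the DMAD-alone windows and 11.9% of those on both. Windows not gained split in a similar way, at 71.7%, 21.7% and 14.6%, so this contrast was not particular to gained windows. H3K4me3 peaks of control cells touched 4.07% of Pc-alone windows (14 of 344, 2.44 to 6.71), 16.1% of DMAD-alone windows (29 of 180, 11.5 to 22.2) and 37.1% of windows on both (53 of 143, 29.6 to 45.2). In the windows of the same class that were not gained these shares were 9.65%, 28.1% and 45.0%, so each gained class stood lower, although for windows on both factors the upper limit of 45.2% reaches the not-gained share. H3K27ac separated gained from not gained windows less: 15.4% against 18.5% on Pc alone, 58.9% against 58.3% on DMAD alone and 60.8% against 65.1% on both. H3K27ac without H3K4me3 was the state of 43.3% of gained DMAD-alone windows and of 32.4% of the not gained.

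Pol II peaks differed between the control and knockdown lists in opposite ways by class, with and without gained 6mA. On Pc alone, Pol II touched 13.4% of gained windows in control cells and 27.3% in knockdown cells; in windows not gained it went from 18.4% to 37.6%. On DMAD alone it touched 51.7% and then 37.8% of gained windows, and 56.5% and then 49.8% of the others. On both factors it touched 76.2% and then 78.3% of gained windows, and 74.3% and then 77.1% of the others. In that class Pol II was therefore not less common under gained windows. The lists are 1 per group, of 6776 and 7410 peaks, so a shift common to a whole list, or a difference between the lines the lists are named for, cannot be told apart from one at these windows.

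**Figure D2:**
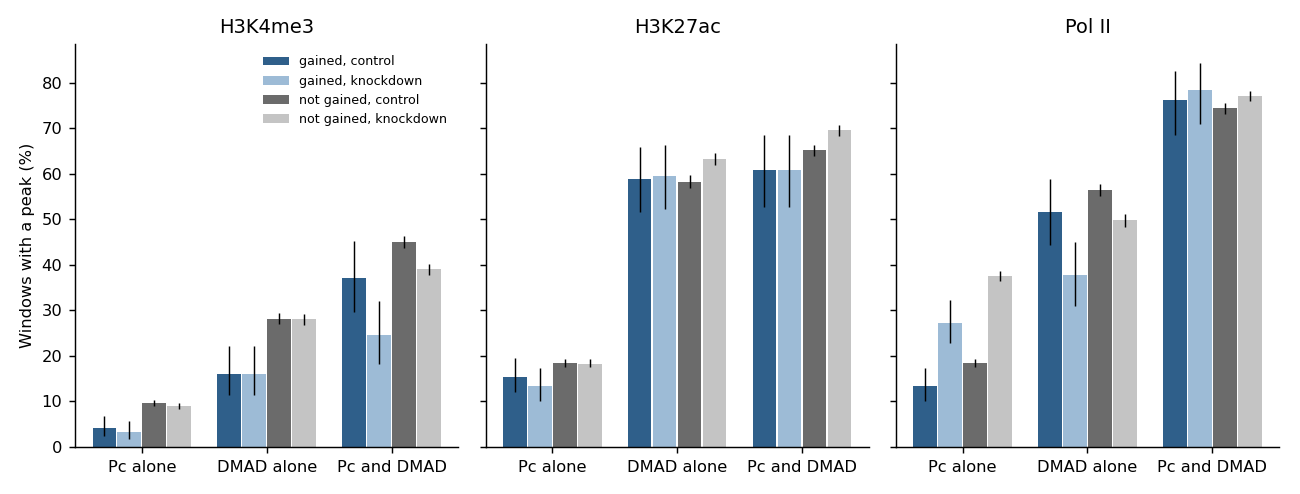
Share of windows (vertical axis, %) with an H3K4me3, H3K27ac or Pol II peak in control and knockdown cells, for gained windows (blue) and windows of the same rule not gained (grey), by class; bars are shares and lines 95% Wilson intervals. H3K4me3 on windows bound by both factors goes from 37.1% to 24.5% when gained and from 45.0% to 39.0% when not, and Pol II on Pc-alone windows is higher in the knockdown list in both.

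H3K4me3 peaks present in control cells were more often missing from the knockdown list at the gained windows. Of 96 gained windows with a control peak, 25 had none in knockdown cells (26.0%, 18.3 to 35.6), and 4 windows had a peak in the knockdown list alone. In the windows of the same rule that were not gained, 611 of 4639 lacked the knockdown peak (13.2%, 12.2 to 14.2), and over all 1-kb windows the share was 6.20%. Windows on both factors supplied 18 of the 25, out of 53 with a control peak (34.0%, 22.7 to 47.4), against 15.6% of such windows not gained. H3K27ac was listed at 15 of the 25 in control and 14 in knockdown cells, and Pol II at 21 in each list.

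Counted by peak, 22 of the 95 control H3K4me3 peaks on gained windows had no overlapping knockdown peak (23.2%, 15.8 to 32.6), against 238 of 2631 peaks on not-gained windows of the rule (9.05%, 8.01 to 10.2). Peak score moves with this result. The authors' score, by its layout a MACS score that grows as the p of a peak falls, had a median of 635 for control peaks on gained windows and of 3100 for those on not-gained windows; the missing peaks on gained windows had a median of 74.2 and reached 235. With the peaks split at a score of 300, 22 of 36 low peaks on gained windows were missing (61.1%, 44.9 to 75.2), beside 237 of 557 on not-gained windows (42.5%, 38.5 to 46.7); above it 0 of 59 and 1 of 2074 were missing. Within the low peaks the 2 intervals overlap, and with 1 H3K4me3 library per group there is no replicate check. The low level of a peak and a change of H3K4me3 cannot be told apart for these peaks.

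The 25 windows included all 3 of Hmx, a homeobox gene (3R, 13384651 to 13394126) whose locus overlaps CG18139. These lie at 13384001, 13392001 and 13393001, each fully covered by Pc and covered by DMAD over 81, 378 and 1000 bp, with 34, 417 and 353 bp of control H3K4me3 peak and none in knockdown. The control H3K4me3 peaks there scored 100.72, under the first window, and 51.05, where the lowest score of that list was 50.05. Pol II was listed for 81, 0 and 0 bp of these windows in control and for 1000, 636 and 1000 bp in knockdown cells. Hmx was at 0.00762 and 0.0129 FPKM in the authors' deposited table and was not tested there. Others, named here after their values were seen, lay at oys, a lysophospholipid acyltransferase gene with 2 adjoining windows, at the ecdysone-response gene Eip75B, at the kinase gene hipk and at sima, which encodes the fly HIF-alpha. Their control H3K4me3 peaks scored low as well, 65.48 at oys, 92.07 at Eip75B, 59.75 at hipk and 87.87 at sima. In control and knockdown cells the authors' deposited table gave 210 and 230 FPKM for oys and 9.92 and 9.47 for Eip75B. For hipk the authors' deposited table gave 107 and 92.1, and for sima 93.1 and 98.9. Of 48 genes at the 25 windows, 25 were tested and 0 were called by the authors' Cuffdiff at q below 0.05, with 1 at an unadjusted p below 0.05; of all tested genes 0.254% and 2.31% did so.

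Several of the loci with most windows lay under Pc alone. The locus of grainy head, grh, an epidermal transcription factor gene (2R, 13690293 to 13729584), had 8, the most of any locus; 32 of its 40 windows met the rule and all 8 gained ones did. Each of the 8 touched Pc alone, over 824 to 1000 bp, and none touched an H3K4me3 or H3K27ac peak in either list. A control H3K4me3 peak touched 0 of all 32 windows of the rule there, so its absence was not particular to the gained ones. A Pol II peak touched 1 of the 8 in control and 2 in knockdown cells, at the left end of the locus. With 0.158 and 0.131 FPKM in control and knockdown cells in the authors' deposited table, grh was not tested there.

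Ubx, the Hox gene of the posterior thorax (3R, 12482344 to 12560348), had 5 windows, at 12486001, 12491001, 12492001, 12519001 and 12522001. They were covered by Pc over 824, 1000, 1000, 770 and 1000 bp and by DMAD over 0 bp, and 3 of them sat on a single Pc region of 7810 bp. Of the 79 windows of this locus 61 met the rule and none of the 61 had an H3K4me3 peak in control cells. Ubx was at 0 and 0.00965 FPKM in the authors' deposited table. Of the 8 Hox genes, all of which had Pc or DMAD windows of the rule and a control FPKM below 1 in the authors' deposited table, 5 held a gained window: Ubx, Antp with 2, and lab, Dfd and Abd-B with 1 each, the last 3 named after their values were seen. In total 10 of the 250 windows of the rule at these 8 loci were gained, and all 10 were on Pc alone. In all gene loci 526 of 15901 windows of the rule were gained (3.31%), and on Pc alone 226 of 5443 (4.15%). The count at the Hox genes therefore lies near the share of all gene loci.

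Further loci with many windows were of transporter and regulator genes. E23, an ABC transporter gene (2L, 3334870 to 3355000), had 5 among 13 windows of the rule, Glut1, a glucose transporter gene (3L, 914073 to 993687), 5 among 35, and chinmo, a BTB zinc-finger gene of neuronal temporal identity (2L, 1651257 to 1704682), 4 among 39. All 14 were on Pc alone and none carried H3K4me3 or H3K27ac. Control H3K4me3 was rare at these loci in any case, touching 0 of the 13, 1 of the 35 and 3 of the 39 windows of the rule. At Glut1 a Pol II peak touched 2 of the 5 windows in control and 5 in knockdown cells. The authors' deposited table gave control values of 0.159 FPKM for E23, 0.916 for Glut1 and 0.0304 for chinmo. The LIM-homeobox gene tup and the homeobox gene dve had 4 windows each, 4 and 3 of them on Pc alone, at 0.0868 and 0.185 FPKM in control cells in the authors' deposited table. Of the genes with runs of adjoining windows, sr, an EGR-type zinc-finger gene, and Cda5, a chitin deacetylase gene, stood at 0.464 and 0.319 FPKM in control BG3C2 cells and at 6.28 and 21.0 in control brain in the authors' deposited tables.

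Some loci in the table merge several overlapping genes, and a window there belongs to none of them in particular. A locus of 13 genes on X (4281828 to 4505418), which includes the T-box gene bi and the adaptor gene rb, held 7 windows, 6 on Pc alone. Another of 24 genes (X, 2633121 to 3028565), with the adhesion genes kirre and rst and the eye pigment transporter gene w, held 5, and that of the nuclear receptor gene Hr4 with 3 further genes (X, 1835972 to 1903397) held 5, 3 of them on both factors.

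**Figure D3:**
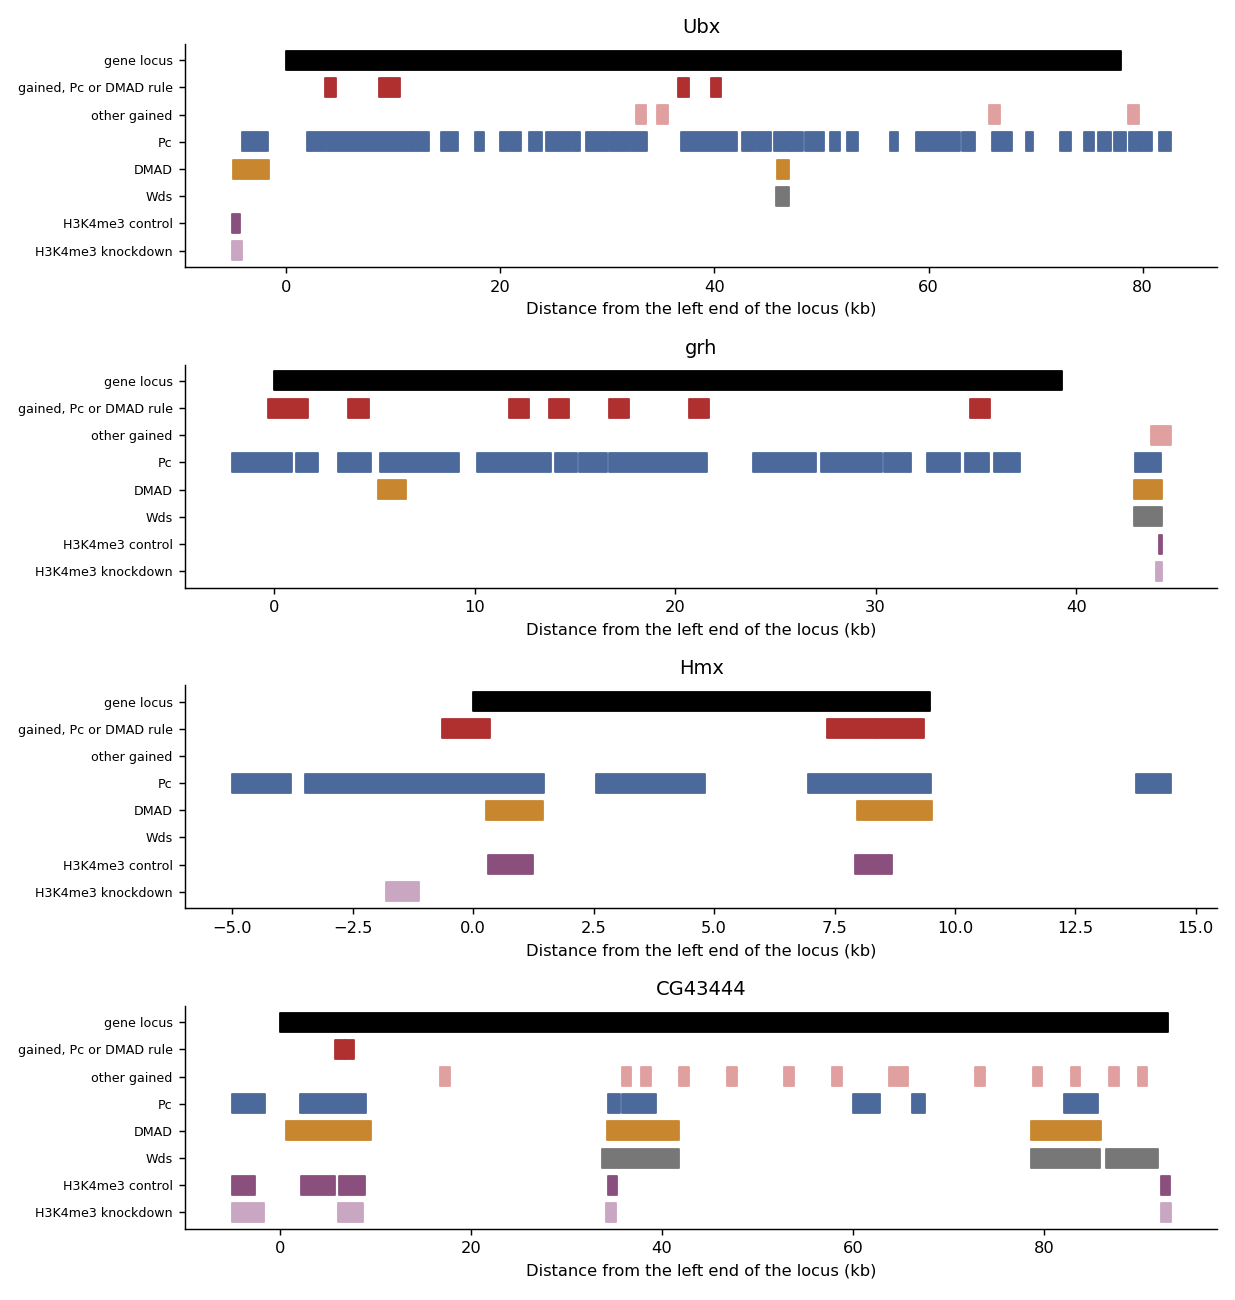
Maps of Ubx, grh, Hmx and CG43444, with distance from the left end of the locus in kb on the horizontal axis and 1 row per list: the locus, gained windows meeting the rule, other gained windows, and Pc, DMAD, Wds and H3K4me3 regions. The 5 windows of Ubx and 8 of grh sit on Pc away from H3K4me3, and the 2 of CG43444 on Pc, DMAD and H3K4me3 together. The 3 of Hmx sit on low-scoring control H3K4me3 peaks that the knockdown list lacks.

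Genes under Pc alone were mostly below 1 FPKM in BG3C2 and less often so in brain, by the authors' deposited tables. Because of merged loci, genes that stand alone at a locus overlapping no other were compared, 237 by the loci of the BG3C2 table and 241 by those of the brain table. A gene with windows of several classes counts in each. In the authors' deposited table for control BG3C2 cells, 77.5% of those with a Pc-alone window were below 1 FPKM (79 of 102, median 0.106), against 22.4% with a DMAD-alone window (median 28.1), 32.8% with a window on both (median 19.8) and 51.8% of all 8375 genes of this kind. In the authors' deposited table for control brain, which was normalized separately, the shares below 1 FPKM were 28.2% of 103, 9.30% of 86, 10.4% of 67 and 38.6% of all 8437 such genes. The gene sets of the 2 tables are therefore not identical. Examples are Glut1, at 0.916 FPKM in BG3C2 and 174 in brain, brp, which encodes the active-zone protein Bruchpilot, at 0.0998 and 167, and chinmo at 0.0304 and 17.9 in the authors' deposited tables. Ubx and grh stayed at 0.254 and 0.983 in brain in the authors' deposited table.

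**Figure D4:**
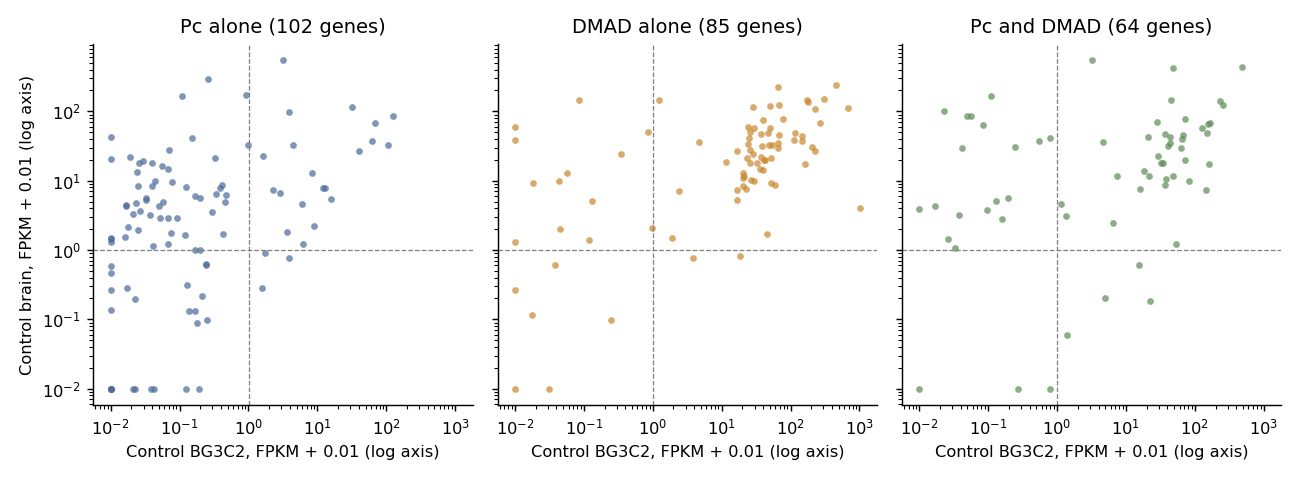
Control FPKM plus 0.01 in BG3C2 (horizontal, log axis) against brain (vertical, log axis) for genes alone at their locus, with 1 point per gene and a panel per class of window; dashed lines mark 1 FPKM. Most Pc-alone genes (79 of 102) lie left of the line, and most DMAD-alone genes right of it.

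The gene lists followed these classes. Of 136 Hox and other Polycomb target genes, 39 had a window (28.7%, beside 5.06% of all genes), 35 of them one on Pc alone. In control cells 32 of the 39 were below 1 FPKM in the authors' deposited table, as were 109 of all 136. The density of Pc moves with the share of genes that had a window: 125 of the 136 had windows of the rule. Of 1299 such windows 5.00% were gained (3.95 to 6.33), beside 3.31% in all gene loci (3.04 to 3.60) and, on Pc alone, 5.23% beside 4.15%. Besides those already named, the zinc-finger gene disco-r had 3 windows and the homeobox gene Ptx1 had 2; both stood at 0.0131 FPKM in control cells in the authors' deposited table. Of 8 list members tested with a window, 0 were called by Cuffdiff and 0 had an unadjusted p below 0.05.

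Axon guidance and adhesion genes were different. Of 74 such genes measured, 12 had a window (16.2%, beside 5.06% of all genes), 9 of these at least 1 on DMAD alone, and 11 were tested. The median locus length of this list was 40.2 kb, beside 3.83 kb for all genes. Of its 269 windows of the rule 5.95% were gained (3.69 to 9.44), beside 3.31% in all gene loci (3.04 to 3.60). The merged X locus of 24 genes with kirre and rst supplied 33 of the 269 windows and 5 of the 16 gained ones. Only 3 of the 12 genes stood alone at a locus overlapping no other, so windows at the rest may belong to other genes. Examples of the 12 are the cell adhesion genes kirre and rst, which share 5 windows of 1 merged locus, 3 on DMAD alone and 2 on Pc alone. Others are the receptor phosphatase gene Ptp99A with 2 windows, and the immunoglobulin receptor genes Dscam and Dscam4 with 1 each. In the authors' deposited table the control and knockdown values were 61.9 and 48.8 FPKM for Dscam (log2 fold change -0.34), 9.01 and 8.13 for Ptp99A (-0.15) and 12.9 and 11.7 for Dscam4 (-0.15). Of the 11 tested, 9 had a log2 fold change below 0, as did 36 of the 43 list members tested without a window, and 0 of the 11 were called or had an unadjusted p below 0.05 in the authors' deposited table.

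Of 58 neuronal and synaptic genes 9 had a window (15.5%, beside 5.06% of all genes). Only 3 of the 9 stood alone at a locus overlapping no other. The median locus length of this list was 21.4 kb, beside 3.83 kb for all genes. In control cells 8 of the 9 were below 1 FPKM in the authors' deposited table, as were 47 of all 58. The 9 include brp with 3, the neuroblast determinant pros with 2, and Nrx-1 (neurexin), the dopamine receptor gene DopR2 and the potassium channel gene Shab with 1 each. In brain the authors' deposited table gave 167, 51.4, 129, 20.7 and 139 FPKM for these 5 genes. Gain was listed for 12 of the 159 windows of the rule at this list's loci (7.55%, 4.37 to 12.7), beside 3.31% in all gene loci (3.04 to 3.60).

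Chromatin regulators and stress genes held few windows. The Polycomb group list had windows at Su(z)2, a gene related to the PRC1 subunit Psc, on Pc alone, and at jing on DMAD alone, 2 of 28 genes (7.14%, beside 5.06% of all genes). Of the 148 windows of the rule at its loci 1.35% were gained (0.371 to 4.79), beside 3.31% in all gene loci. The trithorax and COMPASS list had 4 of 27 (14.8%), with 4.46% of its 112 windows of the rule gained (1.92 to 10.0): mor and osa, subunits of the Brahma remodelling complexes, the Mediator gene skd, and tna. All 6 were tested in BG3C2, and 0 were called by Cuffdiff or had an unadjusted p below 0.05. Their log2 fold changes lay between -0.54 (Su(z)2) and -0.20 (skd) in the authors' deposited table, and 21 of the 22 trithorax and COMPASS genes tested without a window were below 0 too. Of 44 immune genes only Mtk, which encodes the antimicrobial peptide metchnikowin, had a window, on DMAD alone in a locus of 7 genes, and of 22 heat shock and stress genes 0 had one. These lists had few windows of the rule. Of 98 at immune loci 1.02% were gained (0.180 to 5.56), and of 16 at heat shock and stress loci 0 were (0 to 19.4). Both intervals hold the 3.31% of all gene loci. Of 10 measured genes of 6mA and RNA m6A machinery, CG43444 alone had a window.

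The locus of DMAD itself, CG43444 (3L, 2786205 to 2879158), carried 16 gained windows, of which 2 met the rule. These adjoin, from 2792001 to 2794000, and both were covered throughout by Pc and by DMAD. H3K4me3 peaks covered 665 and 1000 bp of them in control cells. They are lines 2 and 1 of the deposited list, whose order is not genomic and is not explained in the sources used here. The authors' deposited table gave the gene 65.9 and 34.9 FPKM in control and knockdown cells (log2 fold change -0.91, p = 0.0058, q = 0.706).

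None of the 419 tested genes with a window was called after knockdown, a count near the share of all tested genes. Of 767 genes at 402 loci with a window, 419 were tested in BG3C2 and 0 had a q below 0.05 by the authors' Cuffdiff, where 0.254% of all 8645 tested genes had one. At an unadjusted p below 0.05 there were 13 of 419 (3.10%), beside 2.31% of all tested genes. The called gene closest to a window, Hsp67Bc, lay 2.61 kb from it, and the others at least 16.1 kb away. Such distances were not taken for genes that were not called, so these have no background. Among the 13, the 6 with the largest changes in the authors' deposited table were CG42711 (log2 fold change 2.13, p = 0.0469), CG5210 (-1.99, p = 0.0468), the Bearded-family gene E(spl)m6-BFM (-1.95, p = 0.0172), CR43334 (1.58, p = 0.0330), the potassium channel gene KCNQ (1.55, p = 0.0461) and Mtk (1.16, p = 0.00145). The authors' deposited table gave Mtk 4498 FPKM in control and 10057 in knockdown cells, with a q of 0.313; q was 1.00 for the other 5.

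Tested genes with a window had a slightly lower median change. In the authors' deposited table their median log2 fold change was -0.07 and 60.4% of 417 were below 0, beside -0.01 and 51.6% for all tested genes. For the 135 tested genes alone at their locus the authors' deposited table gave -0.12 and 66.7% below 0, beside 50.1% of all such genes. Genes with a window also had longer loci, with a median of 28.2 kb beside 3.83 kb for all genes. Among genes alone at their locus, the medians with and without a window in the authors' deposited table were 0.01 and 0.02 under 5 kb (40 genes with a window), -0.11 and -0.05 from 5 to 20 kb (56), -0.21 and -0.03 from 20 to 50 kb (30) and -0.30 and -0.02 over 50 kb (9). No test was made of these medians.

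In brain 7 genes with a window were called, all lower in the libraries labelled knockout. That is 7 of 424 tested genes (1.65%), where 0.762% of all tested genes were called in either direction and 0.375% were called lower. Of the 4377 tested genes with windows of the rule but none gained, 20 were called (0.457%), 10 of them lower. At an unadjusted p below 0.05 the order turned, with 11 of 424 (2.59%) beside 3.51% of all tested genes. At q below 0.01 Cuffdiff called 0, the smallest q among the 7 being 0.0103.

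The neighbouring genes CG6912 and CG3984 (3R, 10960859 to 10962702 and 10962869 to 10964626) changed most. CG6912 fell from 119 to 9.14 FPKM (log2 fold change -3.70) and CG3984 from 71.2 to 5.54 (-3.68), each with q = 0.0103 in the authors' deposited brain table. Their windows, at 10961001 and 10963001, lie 1 window apart on a single DMAD region of 4285 bp, so they are not independent. In BG3C2, where that region was mapped, the authors' deposited table gave 50.0 and 51.6 FPKM for CG6912 and 28.7 and 25.1 for CG3984. Osi2, an Osiris-family gene, fell from 18.1 to 1.80 FPKM (-3.33, q = 0.0344) and Teh1, which encodes a sodium channel accessory protein, from 100.3 to 21.6 (-2.22, q = 0.0103) in the authors' deposited brain table. The noe gene, whose window also touches other genes, fell from 730 to 292 (-1.32, q = 0.0103) and CG30497 from 47.4 to 26.0 (-0.87, q = 0.0290) in the authors' deposited brain table. Windows of the genes named here touched DMAD, except that of Osi2, which had 107 bp of Pc.

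Several measurements stand beside this brain result. For CG43444 the authors' deposited brain table gave 39.8 FPKM in control and 40.4 under the knockout label, so its level did not check that label. Of the 7 genes 5 lie on 3R, as do 19 of all 31 genes called lower (61.3%), while 24.5% of tested genes do. Of the 7 fat body markers, 4 were lower and 3 higher in the authors' deposited brain table. Their summed FPKM there was 1029 against 388 in the knockout libraries as labelled, nearly all of it from the yolk protein genes Yp1 (624 and 225) and Yp2 (383 and 142), and 1 of the 7 was below 1 in control. Fbp1 (1.47 and 2.84), Fbp2 (1.27 and 6.59) and Lsp1alpha (0.0893 and 0.552) went the other way in the authors' deposited table. The part of these in the result was not tested. In bulk tissue fewer cells of a type and less RNA per cell cannot be told apart. The windows and the Pc and DMAD regions were mapped in BG3C2 and not in brain, and the rule leaves out windows on brain gained regions.

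**Figure D5:**
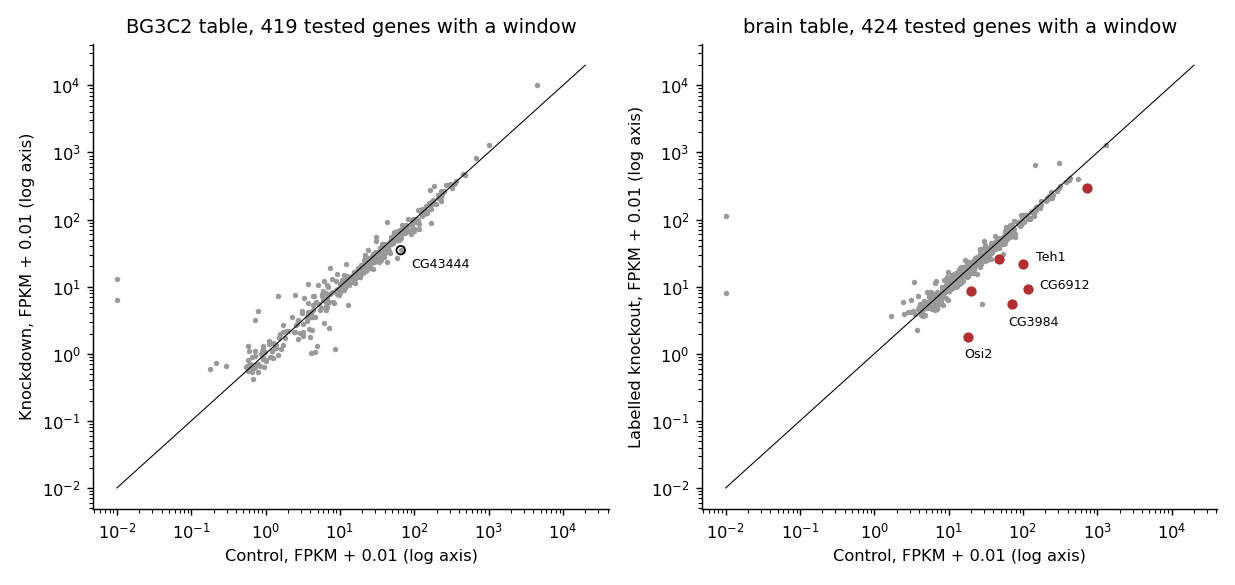
Control against perturbed FPKM plus 0.01 (both log axes) of tested genes with a window, in BG3C2 (left, 419 genes) and brain (right, 424 genes); each point is a gene, the line marks equality, red points have q below 0.05, those with a log2 fold change below -2 are named, and the open circle is CG43444. No BG3C2 gene is red, and all 7 red genes of brain lie below the line.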

How the data were processed

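The submitters' processing notes name genome build dm3 and, without roles or settings, MACS 1.4.2, Cuffdiff 2.2.1, bedtools, TopHat2 2.0.8, CASAVA 1.4 and Bowtie 0.12.9. The deposited RNA tables give, per the file headers, 1 FPKM per gene and group, the log2 fold change, and the authors' p-value and q-value. The deposited peak lists of H3K4me3, H3K27ac and Pol II carry a score per peak, used only within a list. The gained-6mA, Pc, DMAD and Wds lists hold positions only; the criterion for gain is not given in the sources used here, nor are the libraries behind the merged Pc and Wds lists.

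Starts of gained windows were taken to count from 1 and those of the other lists from 0; positions are printed counting from 1. The arms were cut into windows on the same frame, up to the largest coordinate in any list. Overlap meant at least 1 bp. Shares carry 95% Wilson intervals. Loci and calls (status OK, q below 0.05) are the authors'; no test was fitted here, since the tables hold no replicate values, and the labels do not say that libraries came from separate cultures or flies, so the spread behind the authors' p-values may be technical. 0 columns of per-sample values were left unused. The windows, gene lists and comparisons were chosen with earlier results of these data known. Named genes were the brain-called genes, the 8 loci with most windows and the genes of the 5 longest runs, both cut within ties and taken in order of position, up to 5 genes per list with most windows (8 for Polycomb targets) and the 6 largest changes at p below 0.05 in BG3C2, other than genes said to be named after their values were seen; a further part of the rule, on locus ends by strand, could not be applied. The values of 1 gene called in brain are not reported here. MNase and H3K27me3 were not analysed here. No genome was used, so no window sequence is shown. Python 3.11.15, pandas 2.3.3, numpy 2.4.6 and SciPy 1.17.1 were used; the overlap counts were tested on simulated data.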

Additional observations from a re-analysis of the deposited data

How the results depend on the processing

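The number of windows was 498 with at least 500 bp covered, 666 with starts read as counting from 0, 769 with windows on brain regions kept and 1087 with windows on Wds regions kept. With at least 500 bp of the window under a peak, the shares of the 667 with H3K4me3 were 9.60% in control and 8.40% in knockdown cells, with H3K27ac 27.6% and 27.1%, and with Pol II 27.3% and 30.7%. With the upper 50% of peaks by score they were 6.00% and 6.30%, 19.2% and 20.2%, and 19.5% and 29.1%. Under both settings each share stayed below that of the same windows not gained, but with the upper 50% the H3K4me3 share was not lower in knockdown than in control cells. Gene loci extended by 1 kb held 82.0% of the windows. The count of called BG3C2 genes was 0 at q below 0.05, at q below 0.01, with an FPKM of at least 1, with loci that overlap no other and with loci extended by 1 kb, and 13 at an unadjusted p below 0.05. The brain count of 7, whose alternatives were chosen after seeing the data, was 0 at q below 0.01, 11 at an unadjusted p below 0.05, 6 with loci that overlap no other and 7 with an FPKM of at least 1 or extended loci. The median log2 fold change in BG3C2 lay between -0.07 and -0.06 under the 4 alternatives of scale, filter and centring, and was -0.12 with loci that overlap no other, a setting added after seeing the data. The score of 300 that splits H3K4me3 peaks was also chosen after seeing the data. No paired analysis was possible because the tables hold 1 value and the lists 1 set of positions per group, which also means that no replicate could be left out. Unknown depth limits every list: a window without a peak is one in which none was called, and the arms differ in gain even off the bound regions.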
